A study of Rana omeimontis with 12 samples.

Results

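The genes described here are 39 assembled transcript clusters (unigenes) of the frog Rana omeimontis whose protein annotation names a part of the cell cycle or DNA replication machinery. They were chosen by wording and level, with earlier results of these data known. The terms included origin recognition, DNA replication licensing, proliferating cell nuclear antigen, thymidylate, topoisomerase 2 and condensin. Others were kinetochore, Aurora kinase, polo-like kinase and the main cyclins and cyclin-dependent kinases (CDKs). The level was at least 1 FPKM in at least 3 of 12 libraries. FPKM is the number of sequenced fragments scaled to transcript length and to the fragments mapped in the library. Of 56172 unigenes in the table, 47 matched the wording and 39 also reached the level, among 24085 unigenes of any annotation that did so. Liver and tail RNA came from tadpoles that entered treatment at Gosner stages 30 to 31. The T3 groups were kept for 3 days in water with 10 nM of the thyroid hormone T3, the control groups for the same time in water with the solvent dimethylsulfoxide (DMSO). Food was given throughout, and the paper reports that T3 lowered food intake and body weight. The part of lower feeding in the T3 results was not tested. Each of the 4 groups (T3 liver, control liver, T3 tail, control tail) has 3 libraries. Neither the pooling of tadpoles nor a shared animal behind a liver and a tail of like number is stated in the sources used here, so p-values measure only the spread between these samples. The hormone was given from outside to the whole animal, and each sample holds every cell type of the organ.

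A dividing cell licenses its replication origins by loading the MCM2-7 helicase onto DNA through the origin recognition complex, copies the DNA with PCNA as a sliding clamp, and then condenses its chromosomes and attaches them to the spindle at kinetochores. Transcripts of most of these proteins rise and fall with the share of cells that are cycling. Thyroid hormone drives frog metamorphosis, in which the liver is remodelled and the tail is resorbed, while some larval cell populations die and others multiply.

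Every library carried the markers of its organ. Albumin, fibrinogen, transferrin and apolipoprotein transcripts held 7.72% to 11.1% of summed FPKM in T3 livers and 3.87% to 5.63% in control livers, and at most 0.00715% in any tail. Skeletal muscle transcripts held 3.52% to 5.0% in T3 tails and 5.12% to 10.2% in control tails, and at most 0.00796% in any liver. Exocrine pancreas transcripts (54 unigenes, 2 at 0 in every liver) held 8.13% and 10.1% in control livers 1 and 2 and at most 0.634% in the other livers. Summed FPKM ran from 773936 to 1029985 over the 12 libraries. Over all tested unigenes the log2 fold change of T3 over control had a median of -0.26 (liver) and 0.31 (tail), so each value below stands beside that shift.

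The members fall into 10 groups by role. They comprise 4 origin recognition subunits, all 6 subunits of the MCM2-7 helicase, 1 PCNA, 4 thymidylate or ribonucleotide enzymes, 2 topoisomerase 2 entries, 4 condensin subunits, 10 kinetochore proteins, 2 entries naming Aurora or Polo kinases, CDK4 and CDK6, and 4 entries naming B-type cyclins or CDK2. All 39 descriptions are distinct, and 33 were taken from Xenopus proteins, 4 from Rana, 1 from a bird and 1 from a turtle. The wording also caught proteins that only bind a cell cycle kinase. None of the 39 is described as an Aurora kinase itself, as CDK1 or CDK2, or as cyclin A, D or E. Most levels were low: 26 members stayed under 10 FPKM in every library, and 20 reached 1 FPKM in all 12. The nearest unigene outside the level rule was the origin recognition subunit ORC1, with 1.23 and 1.47 FPKM in T3 tails 2 and 3 and under 1 elsewhere. Just inside it, the kinetochore protein NDC80 had 2.18, 3.48 and 2.28 FPKM in T3 tails and 2.34 in control tail 1, and under 1 elsewhere.

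Tail. The first question was which members changed in the tail with T3. Values on the log2(FPKM + 1) scale were compared with limma over the 18429 unigenes that reached 1 FPKM in 3 or more tail libraries. Adjusted p (Benjamini-Hochberg) is over all of these, and calls were made where it was below 0.05. Log2 fold changes are T3 minus control on this scale. Of 38 members tested, 12 were higher in T3 tails, against 19.2% of all tested unigenes called higher, and 1 was lower, against 6.23%. The median member had a log2 fold change of 0.80, against 0.31 over all tested unigenes, and 31 members had a positive value. By role, 6 of 10 kinetochore proteins, 2 of 4 condensin subunits, 2 of 4 entries naming B-type cyclins or CDK2, 1 of 2 topoisomerase 2 entries, 1 of 6 MCM subunits and none of 4 origin recognition subunits rose. The median log2 fold changes were 0.85 for kinetochore proteins, 0.92 for condensin, 0.95 for the MCM subunits, of which all 6 were positive, and 0.34 for origin recognition. Differences between roles were not tested. Every T3 tail exceeded every control tail for 18 of the 38 members, against 32.9% of all tested unigenes, and the reverse held for 3 members, against 10.9%. In whole-organ RNA a larger share of cycling cells and more of these transcripts in each cell cannot be told apart.

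Low levels set a limit on these counts. Of the 12 members called higher, 5 had at least 1 FPKM in all 3 control tails, 5 in 1 or 2 of them and 2 in none. The last 2, SKA3 and KNTC1, entered the test only through the T3 tails. The 5 with 1 or 2 such controls (NUF2, Spc24, Spc25, SKA1 and NCAPH2) also needed T3 tails to reach the level in 3 libraries. All 6 kinetochore calls are among these members, so neither the 12 nor the 6 kinetochore calls are a count over all members. The kinetochore members with all 3 control tails at the level, MIS12, DSN1 and zw10, were not called. The split between higher and lower calls also moved with scaling. After median-ratio scaling, which brings the typical unigene to the same level in every library, 10 members were higher and 5 lower (13.7% and 14.6% of all tested unigenes), and the median member was at 0.51. After quantile normalization 10 were higher and 4 lower (13.9% and 13.5%), and after scaling to equal library sums 20 and 1 (25.9% and 4.45%).

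**Figure D1:**
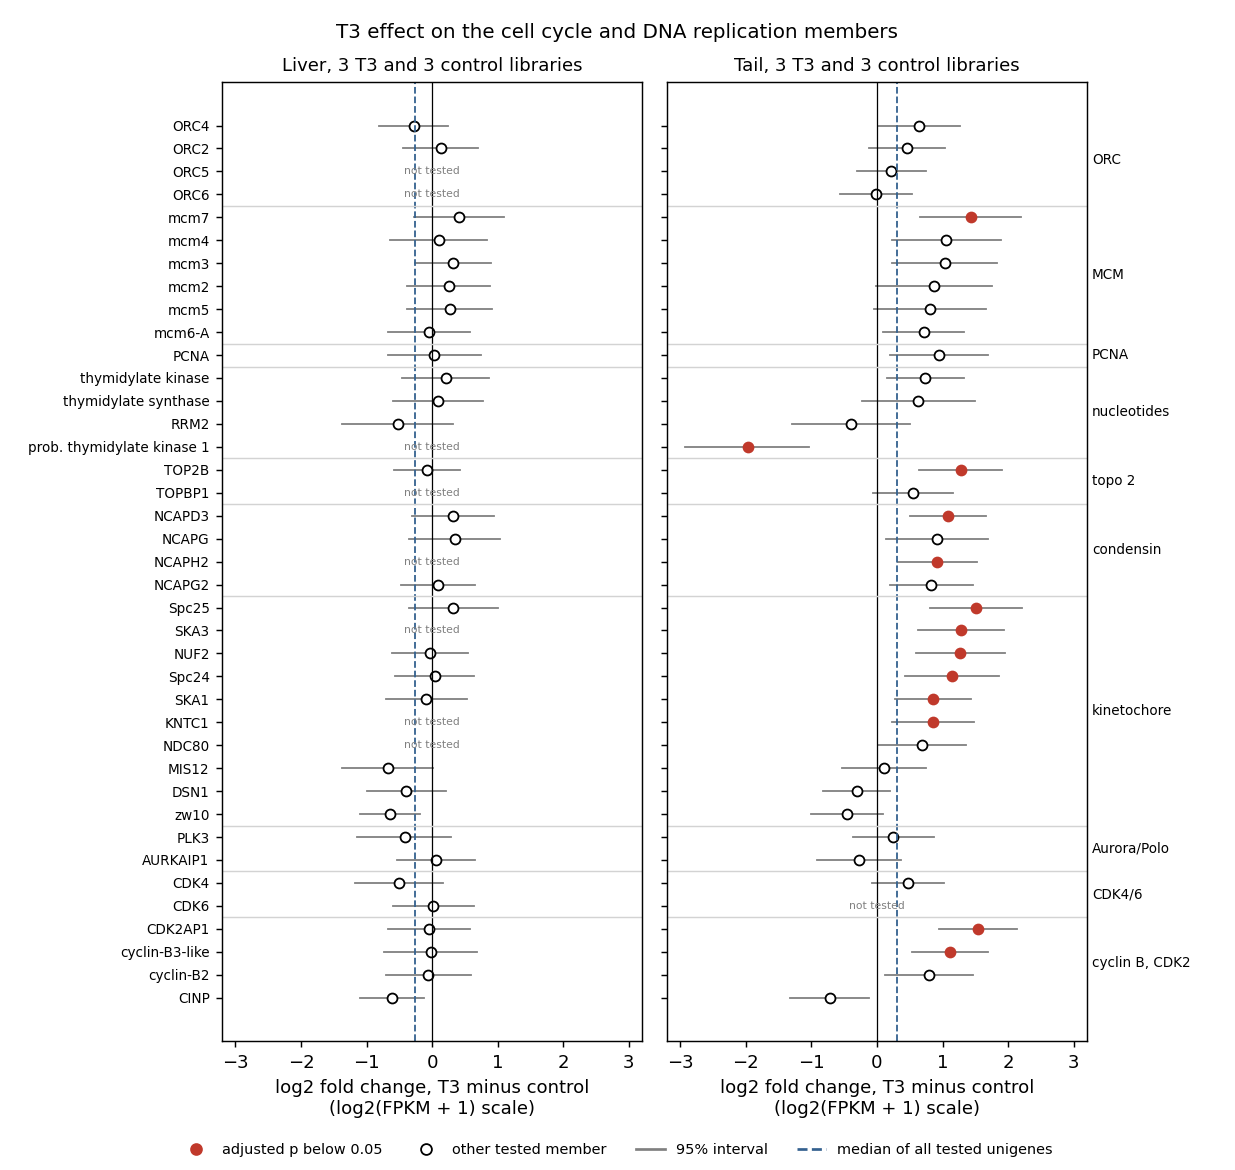
Log2 fold change of T3 over control by role for the members tested, 31 in the liver (left) and 38 in the tail (right). The 95% intervals are from the limma fit of 3 T3 and 3 control libraries each, and the remaining members are marked as not tested. Filled points passed adjusted p of 0.05 and the dashed line marks the median of all tested unigenes (-0.26 in the liver, 0.31 in the tail); 12 tail members lie filled on the right, 1 on the left, and no liver member is filled.

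Origin recognition proteins mark the sites where replication starts. ORC2, the most abundant of the 4 in the tail, had 2.93, 3.99 and 3.95 FPKM in T3 tails and 3.23, 1.79 and 2.17 in control tails. T3 tail 1 lay below control tail 1, so the groups overlapped (0.46, SE 0.26, adjusted p = 0.222). ORC4, which binds ATP within the complex, gave 0.64 (adjusted p = 0.123), ORC5 gave 0.22 and ORC6 gave -0.01. The summed FPKM of the 4 was 10.6 ± 1.88 in T3 tails and 7.68 ± 1.84 in control tails (SD, n = 3 each).

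The MCM subunits form the ring-shaped helicase that unwinds DNA ahead of the fork. The subunit mcm7 (TRINITY_DN89373_c0_g1) had 11.8, 23.6 and 21.9 FPKM in T3 tails and 10.2, 5.08 and 4.48 in control tails. All T3 tails lay above all control tails, though T3 tail 1 did so by little. Its rise passed the test (log2 fold change 1.43, SE 0.35, adjusted p = 0.0142), but the adjusted p was 0.063 without T3 tail 2 and the call was also lost without control tail 3. The most abundant after it, mcm4, had 7.74, 18.6 and 15.5 FPKM in T3 tails and 9.5, 5.39 and 3.67 in control tails. T3 tails 2 and 3 stood above every control, while T3 tail 1 fell between control tails 1 and 2. Its log2 fold change of 1.06 missed the threshold (SE 0.38, adjusted p = 0.0615), as did mcm3 (1.03, adjusted p = 0.0588), mcm2 (0.87), mcm5 (0.81) and mcm6-A (0.71).

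Summed over the 6 subunits, FPKM was 32.1, 69.1 and 71.8 in T3 tails and 37.3, 18.8 and 15.8 in control tails. T3 tail 1 was thus lower than control tail 1, as it was for 4 of the 6 subunits taken singly, while the other T3 tails stood above all controls. Without T3 tail 1, mcm2, mcm3, mcm4, mcm5 and PCNA passed the test, with log2 fold changes of 1.29, 1.38, 1.40, 1.23 and 1.30 and adjusted p of 0.0372, 0.0237, 0.027, 0.0412 and 0.0234. Without T3 tail 2 their values were 0.76, 0.95, 0.82, 0.68 and 0.73, and without control tail 3 they were 0.72, 0.90, 0.79, 0.60 and 0.78. None of the 5 passed in either case, and mcm7 lost its call in both. Of 16 alternatives, mcm3, mcm4 and PCNA passed in 4. Beside leaving out T3 tail 1, these were leaving out control tail 1, equal library sums and leaving out unigenes under 3 FPKM. The subunits mcm2 and mcm5 passed in 1 of 16, and mcm6-A in 2 of 15.

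PCNA (TRINITY_DN99824_c6_g1), the clamp that holds DNA polymerase on its template, was after zw10 the most abundant member in the tail. It had 52.3, 117 and 104 FPKM in T3 tails and 61.2, 40.3 and 34.6 in control tails. T3 tails 2 and 3 exceeded every control tail, but T3 tail 1 lay within the control range. The difference did not pass (0.95, SE 0.34, 95% interval 0.20 to 1.70, adjusted p = 0.0631).

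**Figure D2:**
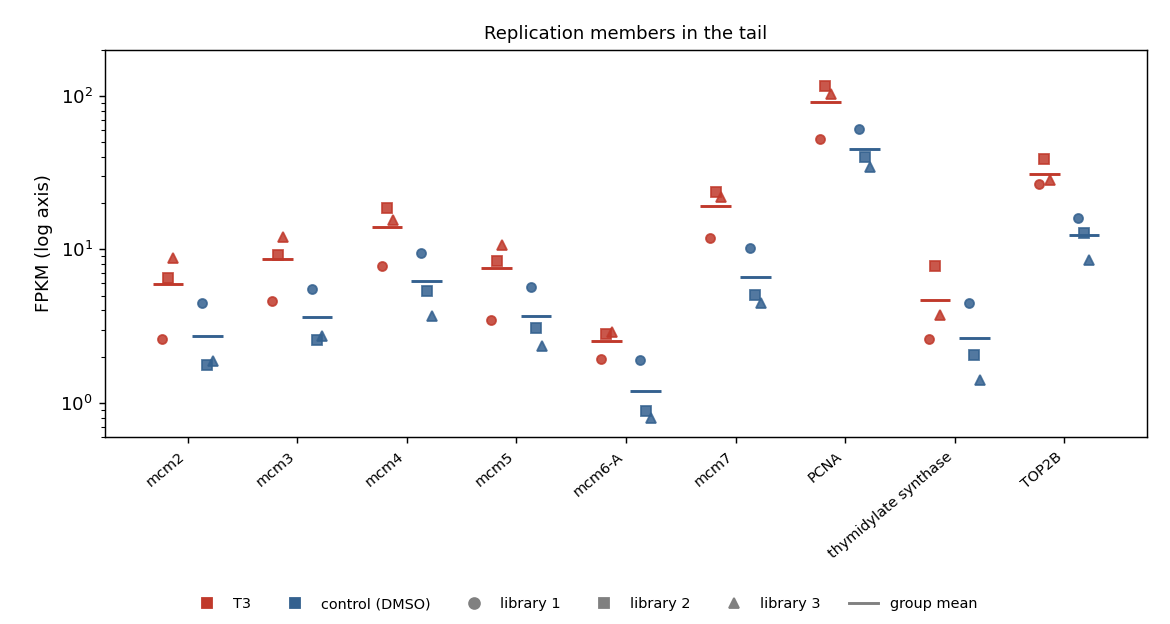
FPKM (log axis) of replication members in each tail library, T3 left of control, with bars at the group means of 3 libraries. For mcm2, mcm3, mcm4, mcm5, PCNA and thymidylate synthase the circle of T3 tail 1 lies below the circle of control tail 1, whereas for TOP2B all T3 tails (26.7 to 38.6) lie above all control tails (8.51 to 16.1).

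Enzymes of nucleotide supply differed in direction. Thymidylate kinase, which phosphorylates dTMP to dTDP, had 10.9, 11.6 and 11.9 FPKM in T3 tails and 7.17, 8.17 and 4.58 in control tails. The groups did not overlap, yet the change of 0.74 missed the threshold (SE 0.26, adjusted p = 0.0628). Thymidylate synthase, which makes dTMP from dUMP, gave 0.63 (adjusted p = 0.254). RRM2, the small subunit of ribonucleotide reductase, gave -0.40 (adjusted p = 0.499) at levels of 0 to 2.73 FPKM. A separate unigene described as probable thymidylate kinase 1 (TRINITY_DN91655_c5_g1), matched to a bullfrog protein, had 0.84, 2.05 and 1.83 FPKM in T3 tails and 19.6, 4.86 and 6.92 in control tails. All T3 tails lay below all control tails, and control tail 1 stood far above the other controls. It was the sole member that fell (-1.97, SE 0.43, adjusted p = 0.00781), and it kept its call in all 16 alternatives run in the tail.

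Topoisomerase 2 passes one DNA duplex through another. The member with that activity is the beta form, TOP2B (TRINITY_DN117090_c7_g1), an isoform that non-dividing cells also express in mammals. It had 26.7, 38.6 and 28.3 FPKM in T3 tails and 16.1, 12.9 and 8.51 in control tails. Every T3 tail stood clear of every control, and T3 tail 1 was not apart from T3 tail 3. TOP2B rose with a log2 fold change of 1.28 (SE 0.29, adjusted p = 0.00946), a call lost without T3 tail 2 (1.12, adjusted p = 0.0548). TOPBP1, a scaffold for replication start and checkpoint signalling that binds topoisomerase 2, gave 0.55 (adjusted p = 0.169).

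Condensins fold chromosomes for mitosis. NCAPD3 (TRINITY_DN97952_c0_g1) of condensin II had 3.73, 5.49 and 4.04 FPKM in T3 tails and 2.1, 1.46 and 1.11 in control tails, and rose (1.09, SE 0.26, adjusted p = 0.0133), a call lost without T3 tail 2. NCAPH2, the subunit that closes the condensin II ring, averaged 2.85 ± 0.842 FPKM in T3 tails and 1.02 ± 0.405 in control tails and rose as well (0.92, adjusted p = 0.0323), though its call held with only control tail 1 among the 6 libraries left out. For both, no T3 tail overlapped a control. NCAPG2 of condensin II (0.83, adjusted p = 0.0538) and NCAPG of condensin I (0.92, adjusted p = 0.079) did not pass. NCAPG was the condensin subunit with the highest mean in the tail, and its 3.98 FPKM in control tail 1 exceeded 3.71 and 3.87 in T3 tails 1 and 3.

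Of the kinetochore members, 6 rose and 4 did not pass. The outer Ndc80 complex (NDC80, NUF2, Spc24 and Spc25), which grips spindle microtubules, summed to 12.7, 22.4 and 14.7 FPKM in T3 tails and 8.86, 4.02 and 2.72 in control tails. T3 tail 2 was the highest and control tail 3 the lowest, and no T3 tail overlapped a control. Spc25 (TRINITY_DN109166_c1_g1) had 4.21, 8.97 and 6.12 FPKM in T3 tails and 2.44, 1.35 and 0.99 in control tails. All T3 tails were above all controls, and Spc25 rose by a log2 fold change of 1.51 (SE 0.32, adjusted p = 0.00665). Its call held in all 16 alternatives run in the tail.

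NUF2 (TRINITY_DN109146_c6_g1) had 2.97, 4.91 and 3.16 FPKM in T3 tails and 1.62, 0.95 and 0.35 in control tails. The groups stood apart, and NUF2 rose (1.27, SE 0.31, adjusted p = 0.0128), a call lost without T3 tail 2. Spc24 rose too (1.14, SE 0.33, adjusted p = 0.0283), a call lost without T3 tail 1, T3 tail 2, control tail 2 or control tail 3. NDC80 itself gave 0.69 (SE 0.31, adjusted p = 0.124), with control tail 1 at 2.34 FPKM above T3 tails 1 and 3 at 2.18 and 2.28.

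The SKA complex holds the Ndc80 complex on shrinking microtubules. SKA3 (TRINITY_DN89034_c0_g1) had 1.32, 3.62 and 2.2 FPKM in T3 tails and 0.39, 0.43 and 0.21 in control tails. The T3 tails were spread over a wide range but all lay above the controls (1.28, SE 0.30, adjusted p = 0.0107). SKA3 kept its call in the 12 alternatives in which it was tested. It was left untested by the filter at 3 FPKM and by leaving out any T3 tail. As it reached the level only through the T3 tails, the 12 are not a check on that entry. SKA1 rose by 0.86 (SE 0.26, adjusted p = 0.0363) and KNTC1, a subunit of the complex that brings dynein and checkpoint proteins to kinetochores, by 0.85 (SE 0.28, adjusted p = 0.0482). Both calls were marginal: SKA1 lost its call in 8 of 16 alternatives and KNTC1 in 8 of 12. SKA1 kept it with only control tail 1 among the 6 libraries left out, and KNTC1 lost it without control tail 2 or 3.

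Beside NDC80, the kinetochore members that did not pass were the most abundant ones. MIS12, a core subunit of the complex that joins the centromere to the outer kinetochore, had 9.09, 12.6 and 10.4 FPKM in T3 tails and 13.5, 10.3 and 6.63 in control tails. The groups overlapped throughout (0.11, 95% interval -0.54 to 0.75, adjusted p = 0.814). DSN1, another subunit of that complex, had 17.7, 17.8 and 19.2 FPKM in T3 tails and 23.2, 25.5 and 20.1 in control tails, without overlap between the groups (-0.31, adjusted p = 0.344). The partner of KNTC1, zw10, which also acts in vesicle traffic between Golgi and endoplasmic reticulum, had 69.8, 77.8 and 82.0 FPKM in T3 tails and 129, 80.2 and 113 in control tails. It was the most abundant member in the tail and gave -0.46 (SE 0.25, adjusted p = 0.201). DSN1 and zw10 were called lower in T3 tails after median-ratio scaling and after quantile normalization.

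**Figure D3:**
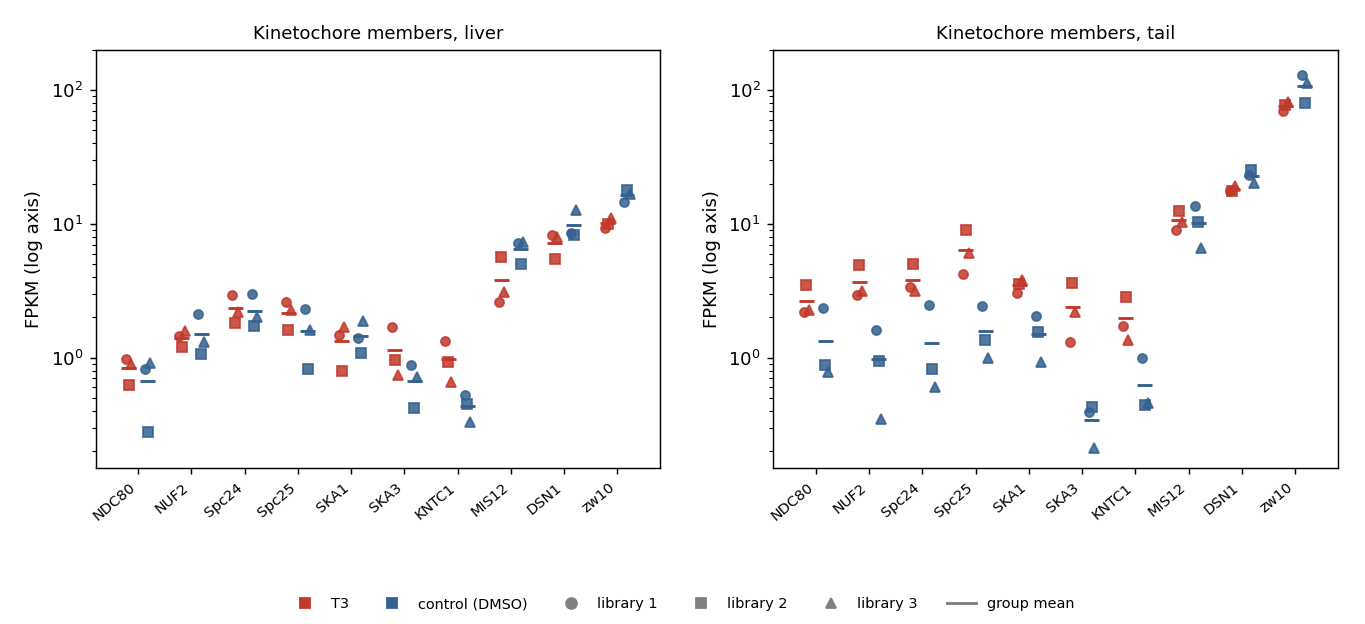
FPKM (log axis) of the 10 kinetochore members in each liver library (left) and tail library (right), T3 left of control, with bars at the group means of 3 libraries. In the tail the T3 points of NUF2, Spc24, Spc25, SKA1, SKA3 and KNTC1 lie above all their control points, whereas those of NDC80, MIS12, DSN1 and zw10 do not. In the liver every T3 point lies above every control point for KNTC1 alone.

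Among the cyclin and kinase entries the largest change was that of CDK2AP1 (TRINITY_DN98889_c7_g3), which binds CDK2 and restrains it in mammals. It had 8.16, 7.95 and 6.76 FPKM in T3 tails and 2.41, 2.45 and 1.21 in control tails. The T3 tails were alike and all far above the controls, with no sign of a low T3 tail 1. CDK2AP1 rose by a log2 fold change of 1.54 (SE 0.27, adjusted p = 0.00252), which held in all 16 alternatives. A cyclin-B3-like unigene (TRINITY_DN109762_c6_g1), of a mitotic cyclin, had 5.33, 7.86 and 6.49 FPKM in T3 tails and 2.93, 2.81 and 1.76 in control tails, again without overlap. It rose (1.12, SE 0.26, adjusted p = 0.0118), a call lost without T3 tail 2.

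Cyclin-B2, an activator of CDK1 at entry into mitosis, gave 0.79 (adjusted p = 0.0785). CDK4, which with D cyclins drives cells out of G1, averaged 7.14 ± 1.26 FPKM in T3 tails and 4.86 ± 0.636 in control tails (0.47, adjusted p = 0.191). CDK6 missed the level needed for the tail test. CINP, a CDK2-binding protein of replication origins, had 5.64, 6.5 and 7.77 FPKM in T3 tails and 13.8, 13.2 and 8.24 in control tails. No T3 tail reached a control level, but the change of -0.72 missed the threshold (SE 0.27, adjusted p = 0.0763) and passed it after median-ratio or quantile scaling. PLK3, a stress-responsive polo-like kinase, gave 0.25 (adjusted p = 0.535). AURKAIP1, an Aurora A-binding protein that is also part of the mitochondrial ribosome, gave -0.27 (adjusted p = 0.521), and was called lower after median-ratio scaling.

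Over the members, 1 tail library of each treatment mostly took the same place in its group. That place is nearer to the other treatment for members higher in T3 tails. For members lower there, such as zw10 and CINP, it is farther away. Of the 38 members tested there, T3 tail 1 was the lowest of the T3 tails for 32 (84.2%), against 39.5% of all tested unigenes. Control tail 1 was the highest of the control tails for 32 as well (84.2%), against 61.5%. For 20 of the 39 members (51.3%) T3 tail 1 lay below control tail 1, a share near the 46.9% of all unigenes tested in the tail. Those 20 included PCNA and 3 of the 4 origin recognition subunits, but neither of the topoisomerase entries and 1 of the 4 condensin subunits. Leaving out T3 tail 1 gave 14 members higher, against 10.6% of all tested unigenes. Leaving out control tail 1 gave 19, against 27.8%, and leaving out T3 tail 2 gave 2, CDK2AP1 and Spc25, against 8.61%. Without T3 tail 3, control tail 2 and control tail 3 the counts were 8, 8 and 7, against 12.6%, 14.1% and 13.6% of all tested unigenes.

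Tissue markers also moved in the tail. Keratin transcripts of epidermis (22 unigenes, none at 0 in every tail) held 0.269% to 0.45% of summed FPKM in T3 tails and 0.0857% to 0.111% in control tails. Leukocyte transcripts (11 unigenes, 2 at 0 in every tail) held 0.00303% to 0.00336% in T3 tails and 0.0013% to 0.00254% in control tails. Erythroid transcripts (14 unigenes, none at 0 in every tail) held 0.369% to 0.61% in T3 tails and 0.12% to 0.373% in control tails, and skeletal muscle held the lower share given above after T3 (60 unigenes, 1 at 0 in every tail). The part of these cell types in the tail results was not tested.

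Liver. The same comparison in the liver called none of the 31 members tested, by limma, against 3.83% of all tested liver unigenes called higher and 8.67% called lower. At an unadjusted p under 0.05 there were 2 members, zw10 and CINP, both lower in T3 livers, against 30% of all tested unigenes. A single-gene test without adjustment also gave 2, both lower, against 20.1% of all tested unigenes called lower by it. The median member had a log2 fold change of 0.02, against -0.26 over all 18923 unigenes tested, and members ran from -0.68 to 0.41. Every T3 liver exceeded every control liver for 0 of the 31, against 8.61% of all tested unigenes, and lay below for 3 (CINP, zw10 and ORC4), against 28.2%.

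Among the replication members tested in the liver none passed. ORC5, ORC6, TOPBP1 and probable thymidylate kinase 1 missed the level needed for that test. PCNA had 54.0, 31.6 and 34.7 FPKM in T3 livers and 38.6, 27.4 and 52.6 in control livers, and was the most abundant member there. The groups overlapped fully (0.03, SE 0.30, 95% interval -0.68 to 0.74, adjusted p = 0.962). The 6 MCM subunits summed to 33.7, 20.3 and 30.1 FPKM in T3 livers and 26.9, 16.5 and 23.3 in control livers. Library 2 was the lowest in both groups, and the ranges overlapped. Of the subunits, mcm7 was the most abundant and had the largest value of any member (0.41, SE 0.30, adjusted p = 0.398), and the other MCM values ran from -0.05 to 0.32.

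No mitotic member tested in the liver passed. NDC80, KNTC1, SKA3 and NCAPH2 missed the level needed for the liver test, though the sums below include NDC80 and NCAPH2. KNTC1 averaged 0.977 FPKM in T3 livers and 0.437 in control livers, with every T3 liver above every control liver. The Ndc80 complex summed to 6.75 ± 1.39 FPKM in T3 livers and 6.01 ± 2.19 in control livers (SD, n = 3 each), and the 4 condensin subunits to 5.39 ± 1.11 in T3 livers and 4.23 ± 1.6 in control livers. TOP2B had 12.2, 8.79 and 11.97 FPKM in T3 livers and 12.3, 10.3 and 12.2 in control livers, with a 95% interval of -0.58 to 0.42 around a log2 fold change of -0.08. The cyclin-B3-like unigene gave -0.02 and CDK2AP1 -0.05, with adjusted p of 0.973 and 0.923. Thymidylate kinase, the highest enzyme of nucleotide supply there, gave 0.21 (adjusted p = 0.668).

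The lowest liver values belonged to members that did not rise in the tail. The most abundant kinetochore member, zw10, had 9.39, 10.04 and 11.1 FPKM in T3 livers and 14.5, 18.01 and 16.8 in control livers. The groups stood apart, and the change was -0.64 (SE 0.20, adjusted p = 0.073). It was called lower where unigenes under 3 FPKM were left out (adjusted p = 0.0477), the sole call of a member among the limma alternatives run in the liver. CINP had 3.81, 3.49 and 2.78 FPKM in T3 livers and 5.49, 5.64 and 5.71 in control livers, with tight controls and no overlap (-0.61, SE 0.21, adjusted p = 0.0982). MIS12 gave -0.68 (adjusted p = 0.17), with T3 liver 2 at 5.69 FPKM above control liver 2 at 5.05. CDK4 gave -0.50 (adjusted p = 0.292), and ORC4 -0.28 (adjusted p = 0.444). Without control livers 1 and 2, which held the pancreas transcripts, the median member was at -0.04, on 28 members tested. The median over all unigenes of that run was -0.26. With 1 control liver left, that run cannot decide which members change. The part of pancreas tissue in the liver values was not tested.

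As in the tail, libraries of the liver took a common order over the members. T3 liver 2 was the lowest T3 liver for 25 of the 31 tested members (80.6%), against 49.1% of all tested liver unigenes, and control liver 2 the lowest control for 26 (83.9%), against 34.1%. The summed FPKM of all 39 members was 186, 125 and 158 in T3 livers and 176, 132 and 188 in control livers.

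T3 effect in liver against tail. Whether T3 acted differently in the organs was tested in 1 model over all 12 libraries, with a mean for each of the 4 groups. Of 39 members, 3 had a lower T3 effect in the liver than in the tail, against 14.3% of 24085 unigenes, and none had a higher one, against 3.48%. By limma without adjustment, 12 members had p under 0.05, against 34.6% of all unigenes. The median member differed by -0.71, against -0.48 over all unigenes, and 36 of 39 members were negative.

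The 3 were CDK2AP1 (-1.59, SE 0.36, adjusted p = 0.0112), TOP2B (-1.36, SE 0.35, adjusted p = 0.0208) and NUF2 (-1.31, SE 0.39, adjusted p = 0.0374). CDK2AP1 had 2.33 ± 0.8 FPKM in T3 livers and 2.42 ± 0.61 in control livers, beside the tail means of 7.62 ± 0.755 in T3 and 2.02 ± 0.705 in controls. NUF2 had 1.42 ± 0.189 in T3 livers and 1.5 ± 0.548 in control livers, beside 3.68 ± 1.07 in T3 tails and 0.973 ± 0.635 in control tails. For all 3, the mean of the T3 tails was the highest of the 4 group means. NUF2 lost this call in 14 of 21 alternatives (adjusted p from 0.0153 to 0.191), and TOP2B lost it without T3 tail 2 and without control livers 1 and 2. Without control tail 1, 8 members had a lower effect in the liver, against 20.4% of all unigenes in that run. The calls also rested on the scale of the deposited values. After median-ratio scaling none of the 3 passed and AURKAIP1 and probable thymidylate kinase 1 were called with a higher effect in the liver, beside 7.15% of all unigenes called higher and 4.79% lower. The median member was then at -0.11. After quantile normalization TOP2B alone of the 3 passed. No MCM subunit passed (-1.02 to -0.54), nor did PCNA (-0.92, adjusted p = 0.199), Spc25 (-1.19, adjusted p = 0.078) or the cyclin-B3-like unigene (-1.13, adjusted p = 0.0624).

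Control liver against control tail. The same model compared the level of the members between control organs. In control livers 7 of 39 members were lower than in control tails by limma, against 20.4% of all unigenes, and 0 were higher, against 22.5%. At an unadjusted p under 0.05 by limma there were 8 members in all, against 50.3% of all unigenes. The median member was at -0.06, against 0.07 over all unigenes. The calls came from members of several roles, and no MCM, condensin or Ndc80 complex subunit was among them.

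The largest was zw10, with 14.5, 18.01 and 16.8 FPKM in control livers and 129, 80.2 and 113 in control tails (-2.61, SE 0.20, adjusted p = 2.83e-07). Every control liver lay far below every control tail. Probable thymidylate kinase 1 had 0.19, 0.52 and 1.63 FPKM in control livers and 19.6, 4.86 and 6.92 in control tails (-2.55, SE 0.42, adjusted p = 0.000317). DSN1 (-1.16, adjusted p = 0.00105), AURKAIP1 (-1.13, adjusted p = 0.00471), ORC6 (-1.13, adjusted p = 0.0016), CINP (-0.92, adjusted p = 0.0056) and thymidylate kinase (-0.89, adjusted p = 0.0156) were also lower in control livers. Without control livers 1 and 2, zw10, probable thymidylate kinase 1 and ORC6 kept the call.

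The most abundant replication genes did not pass between control organs. PCNA averaged 39.5 FPKM in control livers and 45.3 in control tails (-0.20, 95% interval -0.95 to 0.55, adjusted p = 0.674). The MCM subunits lay between -0.31 for mcm4 and 0.26 for mcm3, and summed to 22.2 ± 5.28 FPKM in control livers and 24.0 ± 11.7 in control tails. TOP2B (-0.06), NCAPG (-0.55, adjusted p = 0.223), Spc24 (0.57, adjusted p = 0.151), CDK6 (0.54, adjusted p = 0.0732) and PLK3 (0.24) did not pass.

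**Figure D4:**
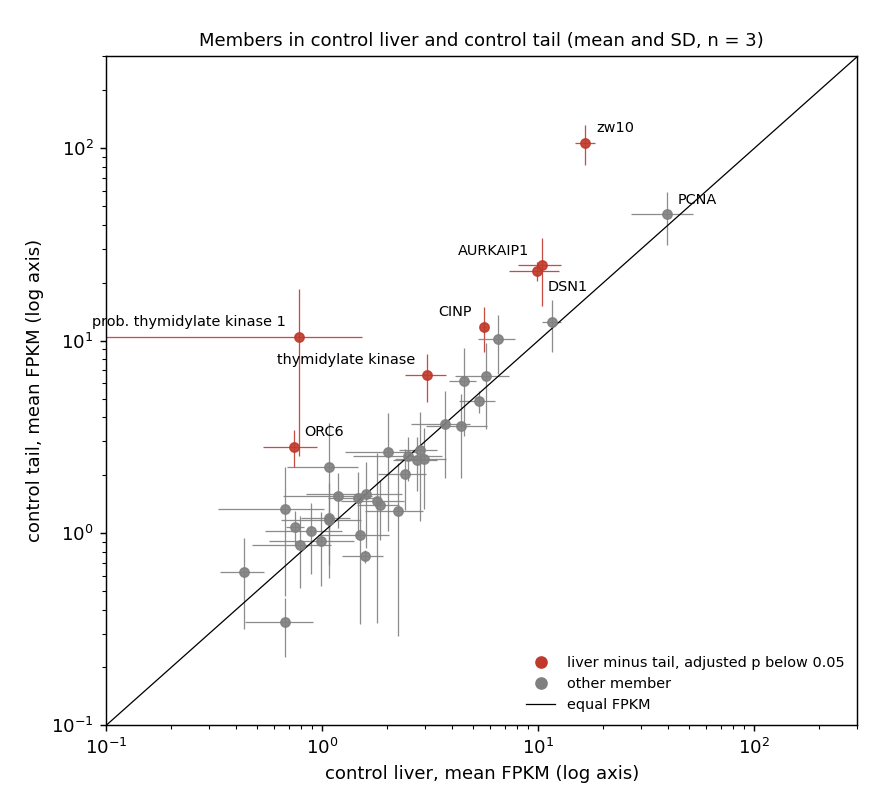
Mean FPKM of each of the 39 members in control livers (horizontal, log axis) and control tails (vertical, log axis), with bars for the SD of 3 libraries; bars that reach below 0.1 FPKM run off the axis. The 7 members that were lower in control livers (filled in red) lie above the line of equal FPKM, zw10 highest at 16.5 in control livers and 107 in control tails, and PCNA lies near the line.

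Other genes of the same pathway, 222 unigenes in 11 lists that the wording of the members does not reach, gave the wider setting. In the tail 33 of 119 tested were higher in T3 tails and 3 lower (30.3% called), with a median log2 fold change of 0.57, against 19.2% higher, 6.23% lower and a median of 0.31 over all tested tail unigenes. Of the 33, 22 had at least 1 FPKM in all 3 control tails, 10 in 1 or 2 of them and 1 in none. Counted in both directions 36 were called, and 26, 7 and 16 without T3 tail 1, 2 and 3. Without control tail 1, 2 and 3 the counts were 53, 14 and 11. The share of all tested unigenes called higher was 10.6%, 8.61% and 12.6% without T3 tail 1, 2 and 3. It was 27.8%, 14.1% and 13.6% without control tail 1, 2 and 3. The share called lower ran from 4.08% to 6% over these runs. Some lists hold several unigenes with 1 description, which may be fragments of 1 gene. The mitotic spindle and cytokinesis list had 12 of 18 tested higher and none lower, of 65 matched unigenes. Of the 12, 7 had at least 1 FPKM in all 3 control tails, 4 in 1 or 2 of them and 1 in none. The last was tested only through the T3 tails, and the 4 also needed T3 tails to reach the level. Its largest change was that of borealin, a subunit of the chromosomal passenger complex, with 11.2, 22.1 and 14.1 FPKM in T3 tails and 8.76, 4.1 and 2.84 in control tails (1.49, adjusted p = 0.015), a call lost without T3 tail 2 or control tail 3. The spindle checkpoint and anaphase list had 5 of 10 higher, led by the checkpoint protein MAD2A at 8.29 ± 1.53 FPKM in T3 tails and 2.45 ± 1.4 in control tails (1.49, adjusted p = 0.00678).

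Lists of chromosome structure had shares of calls near that of all tested unigenes. Of 16 centromere protein unigenes 4 were higher, led by centromere protein F (1.18, adjusted p = 0.00722), which loads onto kinetochores in late G2. Another of the 4 carries the same description (0.85, adjusted p = 0.0422) and may be a fragment of the same gene. Of 13 cohesin and SMC unigenes 3 were higher, led by an SMC2-like unigene of condensin at 14.5 ± 4.62 FPKM in T3 tails and 5.78 ± 2.77 in control tails (1.23, adjusted p = 0.0215), a call lost without T3 tail 2, control tail 2 or control tail 3.

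The lists of DNA synthesis were mixed, beside 19.2% of all tested tail unigenes called higher and 6.23% called lower. Of 28 replication fork unigenes 3 were higher and 2 lower, led by the catalytic subunit of DNA polymerase alpha, which starts new strands, with 5.23, 9.06 and 5.0 FPKM in T3 tails and 2.53, 1.43 and 1.23 in control tails (1.43, adjusted p = 0.00649). Origin licensing and firing had 1 of 11 higher, the GINS complex subunit 3, part of the active replicative helicase (1.03, adjusted p = 0.0272; lost without T3 tail 2 or 3 or control tail 2 or 3). Nucleotide supply other than the members had 2 of 6 higher and 1 lower. The one lower was a dihydrofolate reductase-like unigene, of the enzyme that regenerates tetrahydrofolate for dTMP synthesis. It had 3.43, 3.54 and 10.21 FPKM in T3 tails and 10.25, 18.3 and 11.9 in control tails (-1.21, adjusted p = 0.0393). T3 tail 3 lay just below control tail 1, the lowest control. Its call was lost without T3 tail 1, T3 tail 2, control tail 2 or control tail 3.

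Regulators showed single calls, beside 19.2% of all tested tail unigenes called higher. The shares of the lists of Chk1 (16.7%) and E2F6 (12.5%) lay under that. A CDK inhibitor 2B (p15) unigene, a brake on CDK4 and CDK6, had 5.96, 9.28 and 7.07 FPKM in T3 tails and 2.05, 2.23 and 1.46 in control tails (1.52, adjusted p = 0.00232), 1 of 2 tested in its list, and kept its call in all 16 alternatives. The checkpoint kinase Chk1 rose (1.13, adjusted p = 0.0208), 1 of 6 in its list, though not without T3 tail 2 or control tail 3. The repressor E2F6 rose (0.92, adjusted p = 0.0305), 1 of 8, though among the 6 libraries it kept its call with only control tail 2 left out. The proliferation marker Ki-67, 1 unigene tested, had 5.25, 3.9 and 2.93 FPKM in T3 tails and 3.18, 2.39 and 2.13 in control tails (0.48, adjusted p = 0.212).

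**Figure D5:**
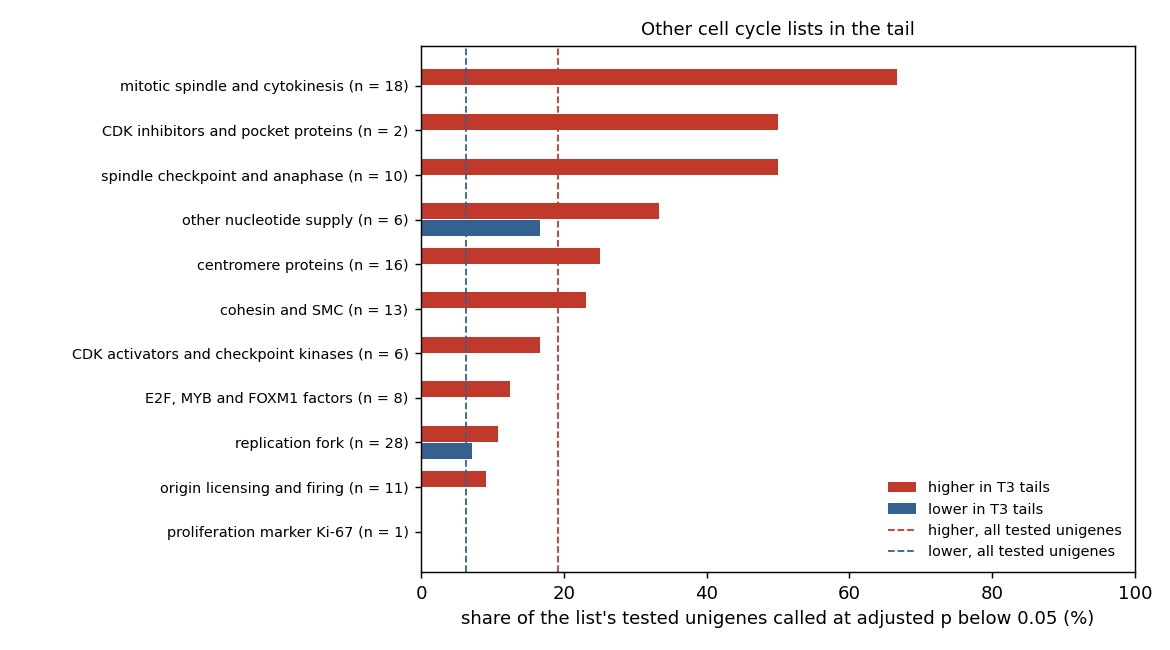
Share of tested unigenes in each of 11 other cell cycle lists called higher (red) or lower (blue) in T3 tails at adjusted p below 0.05, with dashed lines at the shares over all tested tail unigenes (19.2% higher, 6.23% lower). Mitotic spindle and cytokinesis, with 12 of 18 higher, has the longest bar, and the replication fork list, with 3 higher and 2 lower of 28, lies near or below the dashed lines; several lists hold few unigenes.

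In the liver the same lists had 0 of 105 higher by limma and 3 lower (2.86% called), with a median of -0.12, against 3.83% higher, 8.67% lower and a median of -0.26 over all tested liver unigenes. The 3 were an SMC3-like unigene of cohesin with 1.14, 0.74 and 2.61 FPKM in T3 livers and 6.21, 11.9 and 11.6 in control livers (-2.15, adjusted p = 0.0127) and listed at 0 in every tail, the dihydrofolate reductase-like unigene (-1.28, adjusted p = 0.0476) and a DNA polymerase delta subunit 3-like unigene (-1.26, adjusted p = 0.0212). None of the lists' genes was called without control liver 2 or without control liver 3. Of all tested unigenes 2.05% and 1.83% were called higher in those runs, and 1.92% and 1.81% lower. The dihydrofolate reductase-like unigene lost its call in 13 of 17 alternatives. Of the named genes, the T3 effect in the liver was lower than in the tail for CDK inhibitor 2B (-2.26, adjusted p = 0.00163), E2F6 (-1.42, adjusted p = 0.0427) and centromere protein F (-0.99, adjusted p = 0.0378). E2F6 lost this call in 14 of 21 alternatives and centromere protein F in 16 of 21. These genes were named for their rise in the tail, and the difference uses the same tail libraries, so it is no separate support. Over all the lists 14 of 131 unigenes had a lower effect in the liver (10.7%) and 0 a higher one, against 14.3% and 3.48% of all unigenes.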

How the data were processed

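RNA of 12 liver and tail samples was sequenced as paired reads. Clean reads were assembled with Trinity by the authors, who compared the unigenes with NR proteins, mapped reads with Bowtie and used RSEM to estimate abundance; the deposited FPKM values, given with 2 decimals, were used as they stand. Each of the 12 columns was matched to a sample by its label, and no column was left over. Read counts were not used here, so precision was taken from the spread between libraries, and no genome was used.

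Members were found by annotation wording with the species name removed and at least 1 FPKM in at least 3 libraries. The members and the gene lists were chosen with earlier results of these data known. Short names stand for the annotated descriptions. Within a tissue, unigenes with at least 1 FPKM in at least 3 of 6 libraries were tested on log2(FPKM + 1), T3 minus control, with limma 3.58.1 in R 4.3.3 with a variance trend. Because of the added 1, changes of low unigenes come out too small. P-values were adjusted over all tested unigenes, and called means adjusted p below 0.05. The comparison of T3 effects and of control organs used a model with 1 mean for each of the 4 groups, over unigenes that reached the level in 3 of 12 libraries. In the control organs the spread was thus estimated over all groups. No set test was run: lists are described by counts and medians beside those of all tested unigenes.

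Named in the text were, in each role and tissue, the member with the highest mean, the called members with the largest changes, members with a differing T3 effect and the extremes between control organs; in each other list, the called gene with the largest change. Members beyond these, such as further subunits of a complex and the Ki-67 unigene, were named after their values were seen. Marker lists covered exocrine pancreas, skeletal muscle, hepatocyte, erythroid, leukocyte and epidermis transcripts, summed as percent of FPKM. The fits were tested on simulated data. Alternatives changed the pseudocount (0.1 and 5), the filter (none, or 3 FPKM), the scaling (quantile, median ratio or equal library sums), the variance trend, the replicate block, the test (a single-gene test with equal variances and no adjustment) and each library in turn, and left out control livers 1 and 2, where 1 control is assumed to vary like the other libraries. Tables and figures were made with Python 3.11.15, pandas 2.3.3, numpy 2.4.6 and matplotlib 3.10.9.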

Additional observations from a re-analysis of the deposited data

Results flagged for a closer look

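The T3 effect differed between liver and tail, by the test of the difference in the 4-mean model, for 3 members: CDK2AP1 (-1.59 on the log2 scale, liver minus tail), TOP2B (-1.36) and NUF2 (-1.31). Of the genes named from the other lists it differed for CDK inhibitor 2B (-2.26), E2F6 (-1.42) and centromere protein F (-0.99). All of these were called higher in T3 tails. The list genes had been named by that rise, so their difference is no separate support. Over all the lists 14 of 131 unigenes had a lower effect in the liver, against 14.3% of all unigenes. An SMC3-like unigene also passed (-2.15), but it is listed at 0 in every tail, so its value only restates the fall in T3 livers. Over all 24085 unigenes the median of this difference was -0.48. Groups of 3 libraries are too small for the test of a single library standing apart.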

How the results depend on the processing

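No value turned its direction past the threshold under any alternative. In the tail, equal library sums gave 20 members higher, and 5 (median-ratio), 4 (quantile) and 3 (single-gene test, no adjustment) were lower, against 12 higher and 1 lower as reported. Beside these stood 25.9% of all tested unigenes higher, and 14.6%, 13.5% and 8.15% lower. For the T3 effect in liver against tail, equal library sums gave 8 members lower, beside 18.3% of all unigenes. As reported there were 3 lower and 0 higher. Median-ratio scaling gave 0 lower and 2 higher with a median of -0.11, beside 4.79% and 7.15% of all unigenes. Quantile normalization gave 1 lower and 1 higher with -0.18, beside 5.88% and 6.01%. Without control livers 1 and 2 the median member was at -0.74. With a pseudocount of 5 the median member was at 0.35 in the tail and -0.34 for the difference. Between control organs median-ratio scaling gave 1 member higher, beside 22.7% of all unigenes, against 0 as reported. Without control livers 1 and 2, which left 1 control liver, the median member between organs was at 0.01. In the liver 1 member was lower with a filter at 3 FPKM and 2 by the single-gene test. Of the other cell cycle genes 7 and 22 were called in these liver runs, against 3. Beside these stood 6.14% of all tested unigenes higher and 15.9% lower with the filter, and 6.38% and 20.1% by the single-gene test. Without a filter 10 of the other cell cycle genes were called in the tail, against 36. Beside the 10 stood 4.24% of all unigenes higher and 1.38% lower. With each library left out in turn, members higher in the tail ran from 2 (without T3 tail 2) to 19 (without control tail 1). The share of all tested tail unigenes called higher ran from 8.61% to 27.8% over those runs. Members lower in the tail ran from 1 to 2, and both counts were 0 in the liver. For the difference, lower ran from 1 to 8, beside 6.68% to 20.4% of all unigenes, and higher from 0 to 1. Between control organs lower ran from 6 to 7 and higher from 0 to 1. The other genes called ran from 7 to 53 in the tail, and from 0 to 4 for the liver. In those liver runs 1.83% to 2.89% of all tested unigenes were called higher and 1.81% to 6.75% lower. The median member ran from 0.62 to 0.97 in the tail, -0.13 to 0.14 for the liver, -0.94 to -0.54 for the difference and -0.21 to 0.13 between organs. The cause of these moves was not tested. All 39 descriptions are distinct, so keeping 1 unigene a description changed nothing.

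Deviations from the group means correlated weakly between samples of like number. Over the T3 and control pairs correlations were 0.209, 0.067 and 0.133 in the liver and 0.026, 0.041 and 0.05 in the tail. Over liver and tail pairs they were 0.07, -0.073 and 0.166 after T3 and 0.088, 0.166 and 0.068 in controls. Pairs of unlike number ran from -0.211 to 0.071 (T3 and control, liver) and from -0.101 to 0.062 (T3 and control, tail). Between liver and tail they ran from -0.209 to 0.115 after T3 and from -0.133 to 0.038 in controls. In controls every like-numbered liver and tail pair thus lay above every unlike one. These values do not decide whether samples were paired. Whether a liver and a tail of like number share an animal is not given in the sources used here. With the replicate number as a block, 11 members were higher and 1 lower in the tail (KNTC1 lost its call), 0 were called in the liver, and the other 2 comparisons kept their 3 and 7 calls. Of all tested unigenes 19.4% were then higher and 6.6% lower in the tail, and 3.73% and 7.77% in the liver. The shares called lower were 13.4% for the difference and 20.3% between control organs. This block joins T3 and control samples of like number, so it does not model a liver and a tail from a shared animal. A pairing of that kind was not tested. Low levels limit the rest: 22 members averaged under 3 FPKM over all libraries, and SKA3 and KNTC1 could not be tested without a T3 tail.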
